A study of Homo sapiens with 22 samples.

Results

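The genes CDKN2A, CDKN2B, MTAP, IFNA1, IFNB1 and IFNE lie close together on the short arm of human chromosome 9, and they were chosen with the 4.50 Mb window of hg38 around them, chr9:19500001-24000000. The 6 genes were compared with the 19970 protein-coding genes of GENCODE, and the window gave 450 of the 303114 bins of 10 kb on chromosomes 1 to 22 and X. The measurement is where piggyBac transposons lie in the genome of K562, an erythroid-like line from a human leukemia. K562 cells were electroporated with the donor Barcoded-PBase-SRT-Puro, a barcoded self-reporting transposon that carries puromycin resistance, and with a helper plasmid for the transposase, either hyPBase (10 libraries) or hyPBase-centrip (10 libraries), and were kept under puromycin for 11 days. All 20 libraries share the cell line, the donor and the selection, and the labels name no transcription factor fused to either helper. The sources used here do not say what distinguishes hyPBase-centrip, nor which cultures lie behind each library, so p-values below measure the spread between libraries, which may be technical.

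The piggyBac transposase inserts at the 4 bases TTAA. A self-reporting transposon is read from the transcript that runs out of it into the neighbouring DNA. CDKN2A encodes the cell cycle inhibitor INK4a, which holds CDK4 and CDK6 inactive, and ARF, which protects p53 by binding MDM2, and CDKN2B encodes the related inhibitor INK4b. MTAP cleaves methylthioadenosine in the salvage of methionine. IFNA1, IFNB1 and IFNE are type I interferons, the secreted antiviral proteins whose genes are clustered here. Loss of these genes together is a frequent event in cancer, and K562 is among the lines known to lack CDKN2A. DNA copy number was not measured here, so absent DNA and DNA in which no insertion was recorded cannot be told apart.

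The libraries held 1509672 to 3596762 insertions each, of which 242 to 501 fell in the window. All recorded insertions lay on a TTAA. The 8 erythroid marker genes had a median of 22.97 insertions per TTAA site over the 20 libraries, against 1.68 for 8 lymphoid genes and 3.21 for all protein-coding genes. LMO2, which bridges the erythroid transcription factors, had at least 195 insertions in its body in every library, while GATA1 held 3 TTAA sites and 5 insertions in all.

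Insertions were counted per TTAA site, because a window without TTAA cannot be hit. Over chromosome 9 the median 10 kb bin with at least 10 TTAA sites held 1.00 insertions per site in the 20 libraries together. A bin was called low under 5% of that median, and a stretch was a run of low bins of at least 100 kb. By this rule a single stretch without or almost without insertions began inside the window and did not end in it. It was therefore followed along the chromosome, a step taken after the first result was seen. Its edges were set at the outermost TTAA sites with insertions in at least 2 libraries, at chr9:20750636-20750639 on the left and chr9:26592426-26592429 on the right. The 5.84 Mb between these sites held 48302 TTAA sites and 43 insertions at 37 positions, or 0.890 insertions per 1000 sites (95% Poisson interval 0.644 to 1.20, for counting error only). That is 0.0890% of the chromosome 9 median. The part inside the window, 3.25 Mb long, held 20 insertions on 26092 sites, and the 1.25 Mb of the window to its left held 7718 insertions on 9402 sites.

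The sequences at the edges are shown because they hold the edge sites and hit and unhit targets close to them. TTAA sites with an insertion in any of the 20 libraries are in capitals and TTAA sites without one are in lower case, and all are on the plus strand of hg38. The outer part of the left edge is chr9:20750342-20750639, the inner part chr9:20750829-20751039, and the right edge chr9:26592312-26592504.
left edge, outer part: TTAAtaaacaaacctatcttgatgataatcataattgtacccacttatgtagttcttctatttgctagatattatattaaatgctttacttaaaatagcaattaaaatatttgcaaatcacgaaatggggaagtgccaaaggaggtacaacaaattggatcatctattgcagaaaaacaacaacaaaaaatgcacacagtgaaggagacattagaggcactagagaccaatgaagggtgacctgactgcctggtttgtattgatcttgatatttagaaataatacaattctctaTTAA
left edge, inner part: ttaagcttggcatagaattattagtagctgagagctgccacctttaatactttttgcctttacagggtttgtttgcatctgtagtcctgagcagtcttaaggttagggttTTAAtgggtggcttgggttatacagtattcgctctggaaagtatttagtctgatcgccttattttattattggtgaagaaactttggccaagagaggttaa
right edge: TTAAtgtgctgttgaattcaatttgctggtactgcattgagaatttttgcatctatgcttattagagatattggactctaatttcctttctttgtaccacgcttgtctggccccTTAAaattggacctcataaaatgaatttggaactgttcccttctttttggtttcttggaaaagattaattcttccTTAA

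In the outer part of the left edge the first site was hit in 4 libraries and the last in 5, with 3 unhit sites between them. In the inner part 1 of 5 sites was hit, at chr9:20750939-20750942, by a single insertion of hyPBase-centrip replicate 5. From that base no insertion followed for 183 kb and 1597 TTAA sites. The right edge opened with a site hit in 1 library, then the edge site, hit in 3 libraries. To its left, 1 more insertion at chr9:26590252-26590255 preceded 161 kb and 1163 sites without an insertion.

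In steps of 5 kb from the edges, which were placed on these same insertions, the rate fell from the last outer step to the first inner one. In the 5 kb outside the left edge, 58 sites held 79 insertions from 19 libraries, or 1.36 per site, and in the 5 kb inside it 37 sites held 1 insertion. Outside the right edge the first 5 kb held 21 insertions on 28 sites from 12 libraries, or 0.750 per site, and the first 5 kb inside held 2 on 17 sites. Each of the 20 steps outside either edge held insertions, from 0.269 to 11.0 per site on the left and from 0.278 to 2.00 on the right.

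**Figure D1:**
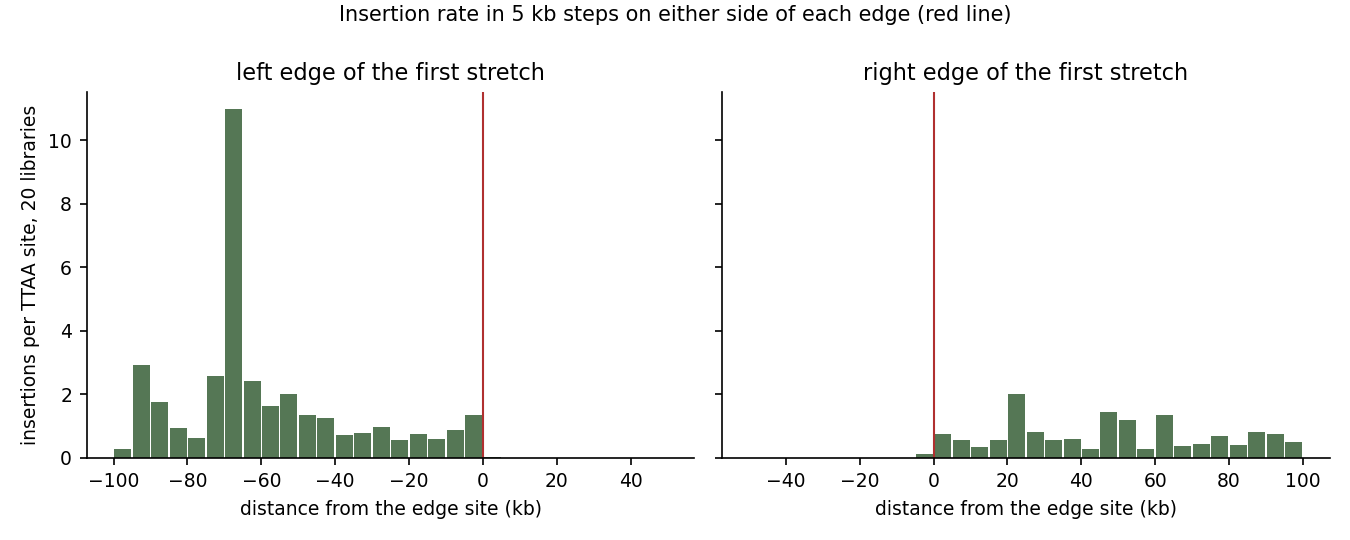
Insertions per TTAA site of the 20 libraries together in steps of 5 kb, against the distance in kb from the left (left panel) and right (right panel) edge site of the first stretch, drawn as a red line. Bars on the outer side reach 11.0 at the left edge and 2.00 at the right edge, and beyond the first inner step no inner bar rises above 0.

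The left edge lay inside FOCAD, a gene for a focal adhesion protein, in intron 5 (chr9:20740341-20758089) of its canonical transcript, with 5 exons to the left of the edge and 39 to the right. The left part of the gene body, 92.3 kb long, held 1348 insertions on 783 sites in 20 libraries, or 1.72 per site, and 50.2% of its sites were hit. The right part, 245 kb long, held 3 insertions on 2080 sites. FOCAD thus divided at the edge, with its start among the densely hit sequence. The right edge lay in no protein-coding or lncRNA gene of GENCODE, and the nearest protein-coding gene, CAAP1, was 248 kb further right.

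The stretch held 25 protein-coding genes whole, and 24 of them had no insertion in any library. Over the genome 2.80% of the 19663 protein-coding genes with a TTAA site had none. Since short genes hold few sites, the share depends on the gene. It was 17.0% for genes with 1 to 10 sites, 2.03% for 11 to 100 sites and 0.176% for more than 100 sites. In the stretch, 15 of 15, 6 of 6 and 3 of 4 genes of these classes had no insertion. The stretch was located on the same insertions, so these counts describe it and are no test of it.

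MTAP was the member with the most targets. Its body, chr9:21802636-21937651 on the plus strand, held 921 TTAA sites and no insertion in any of the 20 libraries. A count of 0 allows up to 3 insertions, which is 0.00326 per site. Of the 19 protein-coding genes with more than 100 sites and no insertion, ELAVL2, a gene for a neuronal RNA-binding protein, had the most sites (1260), MTAP came second, and HACD4, which encodes an enzyme of fatty acid elongation, came ninth with 277. These 3 lay in the stretch, and the other 16 lay elsewhere, among them NXF2 and NXF2B, LIMS3 and LIMS4, and DMRTC1 and DMRTC1B. These are paired gene copies, whose counts are uncertain because the placing of reads between copies was not measured here.

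CDKN2A, chr9:21967752-21995301 on the minus strand, held 220 TTAA sites and 1 insertion, or 0.00455 per site. The count was 1 in hyPBase replicate 4 and 0 in each of the other 19 libraries. The insertion, with 1 read, lay at chr9:21991281-21991284, 16.4 kb upstream of the first exon of the canonical transcript with its 3 exons, between the starts of the INK4a and ARF transcripts. A gene known only by its identifier, ENSG00000264545, overlaps this position on the plus strand. CDKN2B, chr9:22002903-22009305 on the minus strand, held 69 sites and was hit in no library. From the start of MTAP to the end of CDKN2B, over 207 kb and 1439 sites, this was the only insertion recorded.

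The sequence around that insertion is shown with its TTAA in capitals, on the plus strand of hg38, at chr9:21991268-21991297.
CDKN2A site: ttcatacactttcTTAAagtatcatgagtt

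The interferon members are short. IFNB1 (chr9:21077104-21077942) held 5 TTAA sites, IFNA1 (chr9:21440439-21441316) held 4 and IFNE (chr9:21480839-21482313) held 12, and none was hit. For IFNB1 and IFNA1 such a count was found in 17.0% of genes with as few sites, and for IFNE, in the class of 11 to 100 sites, in 2.03%. With 25 kb added on either side the same 3 genes had 410, 360 and 420 sites, again without an insertion. The other type I interferon genes of the stretch, IFNW1, IFNA2, IFNA4, IFNA5, IFNA6, IFNA7, IFNA8, IFNA10, IFNA13, IFNA14, IFNA16, IFNA17 and IFNA21, held 1 to 11 sites each. The 16 genes together held 102 sites and 0 insertions. The whole cluster from IFNB1 to IFNE, 405 kb with 3096 sites, held 4 insertions at 2 positions, in 4 libraries, and both positions lay between genes.

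IFNK, the type I interferon gene of keratinocytes, was the exception among the 17. It lies at chr9:27524290-27526498, right of the stretch, and its 17 sites held 201 insertions. The count per library was 5 to 16 with hyPBase (median 10.5) and 4 to 15 with hyPBase-centrip (median 9), so no library lacked insertions there. Its body lies within that of MOB3B on the other strand, and insertions in it belong to both genes. MOB3B, which encodes a kinase activator, held 12395 insertions, or 9.51 per site, the highest rate of the protein-coding genes from the window to the second stretch described below except for IFNK itself with 11.8.

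The promoters of these interferon genes are shown to compare targets that were and were not hit. Each is the 250 bases before the start in RefSeq (GRCh38.p14), on the strand of the gene, with all TTAA in capitals. IFNB1 is chr9:21077943-21078192 on the minus strand, IFNA1 is chr9:21440189-21440438 on the plus strand and IFNK is chr9:27524040-27524289 on the plus strand.
IFNB1 promoter: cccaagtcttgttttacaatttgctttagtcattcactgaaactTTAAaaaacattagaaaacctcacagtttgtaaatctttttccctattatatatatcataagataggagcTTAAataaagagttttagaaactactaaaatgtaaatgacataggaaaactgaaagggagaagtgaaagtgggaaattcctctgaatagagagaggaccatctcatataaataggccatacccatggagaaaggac
IFNA1 promoter: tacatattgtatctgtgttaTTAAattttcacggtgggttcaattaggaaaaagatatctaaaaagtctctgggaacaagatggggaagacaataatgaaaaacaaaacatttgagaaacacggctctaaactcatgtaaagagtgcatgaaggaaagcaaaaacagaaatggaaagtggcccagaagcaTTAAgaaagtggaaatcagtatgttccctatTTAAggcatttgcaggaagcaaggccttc
IFNK promoter: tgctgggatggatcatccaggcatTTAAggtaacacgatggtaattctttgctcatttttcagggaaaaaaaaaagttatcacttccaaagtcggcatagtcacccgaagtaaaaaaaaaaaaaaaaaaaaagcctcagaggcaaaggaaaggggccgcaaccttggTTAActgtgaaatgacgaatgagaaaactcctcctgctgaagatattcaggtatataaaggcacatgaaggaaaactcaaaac

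IFNB1 had 2 TTAA in this interval, IFNA1 had 3 and IFNK had 2. Neither of the IFNB1 sites and none of the IFNA1 sites was hit, while both IFNK sites were, with 4 insertions in all. Of the 35116 promoters in the table, 43.3% hold a TTAA in these 250 bases. The promoters of MTAP and CDKN2B hold none, so that no insertion could be recorded there, while IFNE holds 1. CDKN2A has a pair of entries, 1 at the start of INK4a with a single TTAA and 1 before the outermost start of the gene with 0, and no TTAA of these promoters was hit.

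Other genes of the stretch gave the same picture. KLHL9, an adaptor of a ubiquitin ligase between interferon genes, held 33 sites. DMRTA1, a gene for a DM domain transcription factor, held 73, the sperm gene IZUMO3 held 17 and TUSC1 held 4. None of them was hit. The 1.68 Mb between CDKN2B and ELAVL2 held 10 insertions on 13530 sites.

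**Figure D2:**
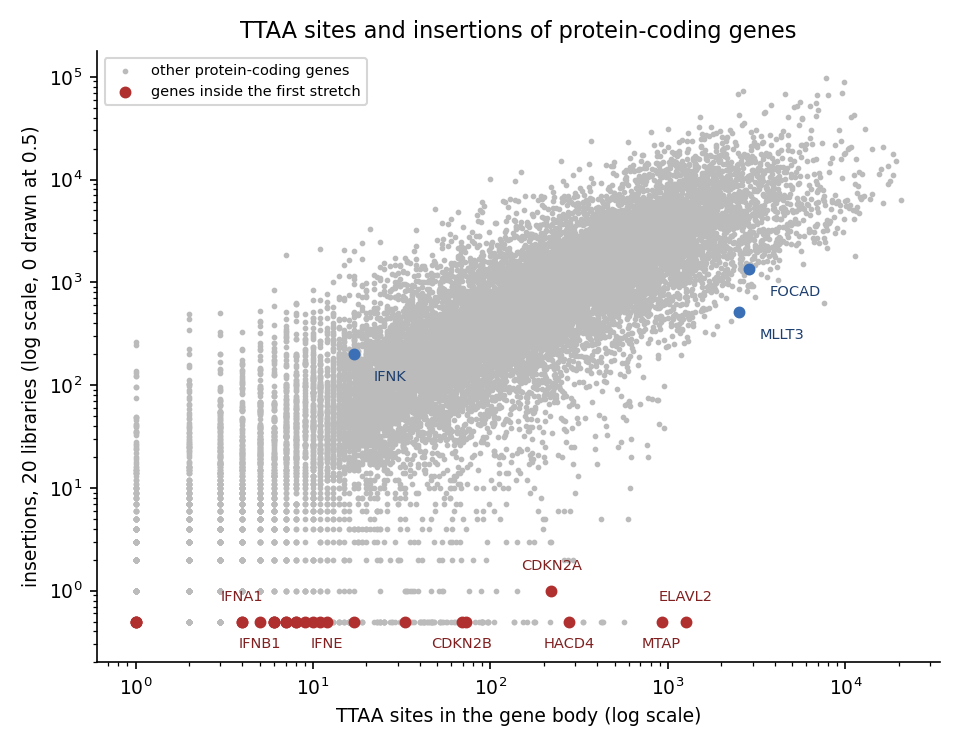
Number of TTAA sites in the gene body (x, log scale) and insertions in the 20 libraries (y, log scale, with 0 drawn at 0.5) for protein-coding genes. The 25 genes inside the first stretch (red) lie along the foot, up to ELAVL2 with 1260 sites, while IFNK, MLLT3 and FOCAD (blue) lie among or near the other genes (grey).

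To the left of the stretch the rate varied by gene. SLC24A2, which encodes a calcium exchanger, held 3966 insertions on 1899 sites (2.09 per site), and the densest 50 kb bin of the window lay in it, at 19.70 to 19.75 Mb with 3.33 per site. From 19.85 to 20.65 Mb, 16 bins of 50 kb in a row lay under 1.00 per site, the median of the 10 kb bins of chromosome 9, with 0.301 insertions per site on average. This run holds MLLT3, a partner of KMT2A in leukemic fusions, whose 2525 sites held 512 insertions, or 0.203 per site, with 9 to 37 in every library. At 20.65 to 20.70 Mb, where FOCAD starts, the rate was 2.44 per site. The limit that defined the stretch lay between the sparse bins and the stretch. The lowest of the 10 kb bins left of the stretch held 0.0541 insertions per site and 0 of 126 bins was empty, whereas 309 of 324 bins in the stretch were empty, and the fullest held 3 insertions.

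On the whole chromosome 10.7% of the 11882 bins with at least 10 sites were empty. The first stretch held 553 empty bins of its 583, and 464 of the 11021 bins outside both stretches were empty (4.21%). The rule used these bins, so the shares are a description.

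**Figure D3:**
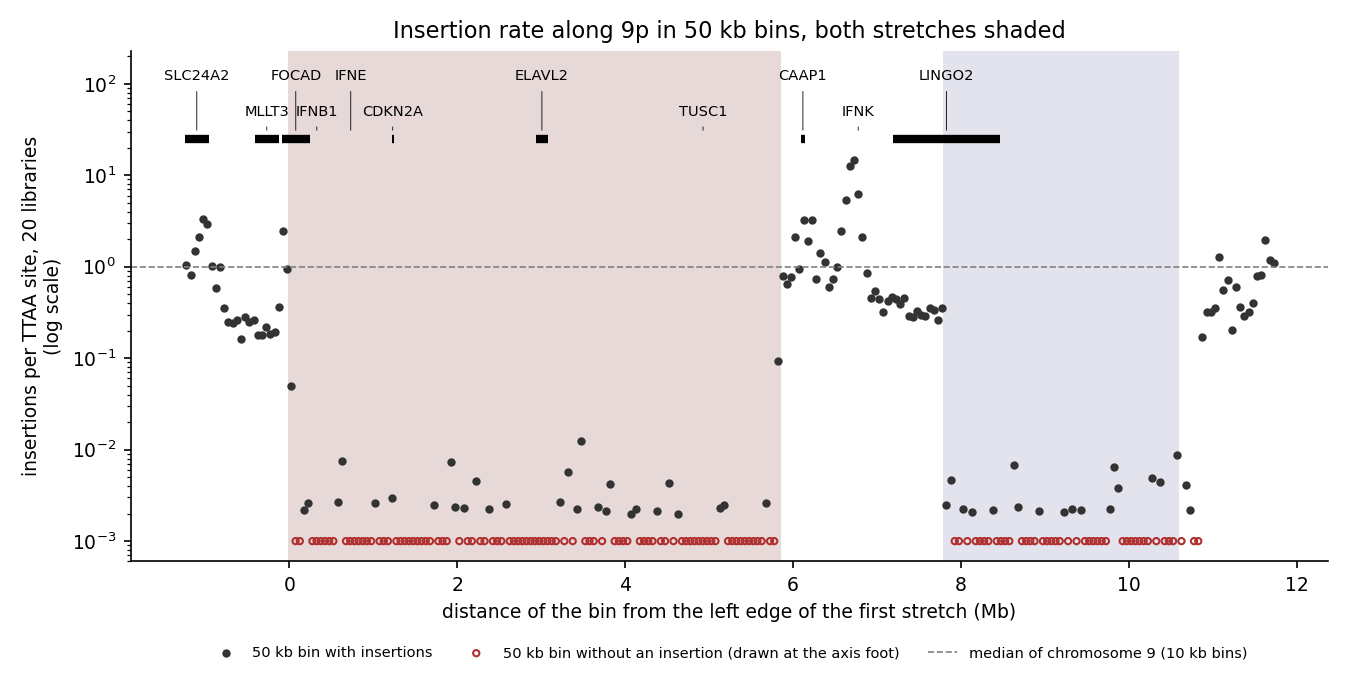
Insertions per TTAA site of the 20 libraries together (y, log scale) in 50 kb bins, against the distance in Mb from the left edge of the first stretch, with the first and second stretch shaded and genes drawn as black bars. Bins in the first stretch are empty (red, at the foot) or hold at most 0.0123 per site apart from the bins that hold an edge, and bins between the stretches hold 0.260 to 14.6 on both sides of 1.00 (dashed), the median of the 10 kb bins of chromosome 9.

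The counts of each library were taken between the edges set on all 20 libraries. In the hyPBase libraries the 48302 sites held 0 to 5 insertions (median 2), and in the hyPBase-centrip libraries also 0 to 5 (median 2.5). The 9402 sites to the left held 242 to 448 insertions with hyPBase (median 368.5) and 264 to 501 with hyPBase-centrip (median 402.5). The ranges of the stretch and of its left side were far apart in both helpers. Per 1000 sites the stretch had 0.0393 ± 0.0358 (SD, n = 10) insertions with hyPBase, against 38.3 ± 7.21 to its left, and 0.0497 ± 0.0312 (SD, n = 10) with hyPBase-centrip, against 43.8 ± 7.58 to its left. Replicates 2, 8 and 9 of hyPBase and replicate 4 of hyPBase-centrip had no insertion in it at all.

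**Figure D4:**
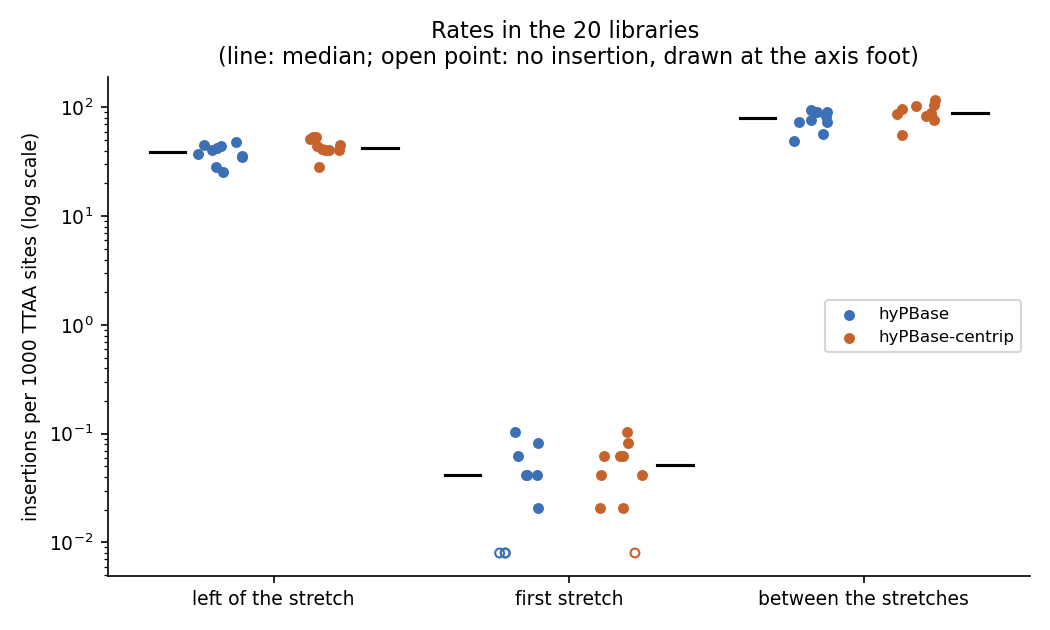
Insertions per 1000 TTAA sites (log scale) in each of the 20 libraries, left of the first stretch within the window, in the first stretch, and between the stretches, with a line at the median of each helper and libraries without an insertion as open points at the foot. Every library lies at 25.7 or above on the left and at 48.8 or above between the stretches, and at 0.104 or below in the stretch.

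In each library the last insertion on the left was sought only up to 10 kb inside the left edge site of all 20 libraries. The first insertion on the right was sought only from 10 kb inside the right edge site. Stray insertions deeper in the stretch did not count, so no edge of a library could lie further inside. The last insertion on the left lay at most 11.5 kb outside the left edge site, in hyPBase replicate 9, and in hyPBase-centrip replicate 5 it lay inside. The first insertion on the right lay at most 19.96 kb outside the right edge site, in hyPBase-centrip replicate 1, and in hyPBase replicate 6 and hyPBase-centrip replicate 2 it lay inside. Under this constraint the length between these insertions was 5.84 to 5.86 Mb, with an SD of 0.00762 Mb over the 20 libraries. In 50 kb bins only low runs that overlapped 21 to 22 Mb were considered, and the longest of them was taken in each library. By this choice 17 libraries gave 1 unbroken low run from 20.75 or 20.80 Mb to 26.55 or 26.60 Mb. In the other 3 libraries bins with stray insertions broke it, and the run went from 20.75 to 25.25 Mb in hyPBase replicate 3, from 20.80 to 21.35 Mb in hyPBase replicate 4 and from 21.40 to 22.45 Mb in hyPBase-centrip replicate 3. The longest run of TTAA sites without an insertion was 15041 to 48492 sites long (median 27977). In hyPBase replicate 4 that run lay beyond the break, 2539 kb from chr9:24053868. In hyPBase-centrip replicate 3 it also did, 1783 kb from chr9:24819905.

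**Figure D5:**
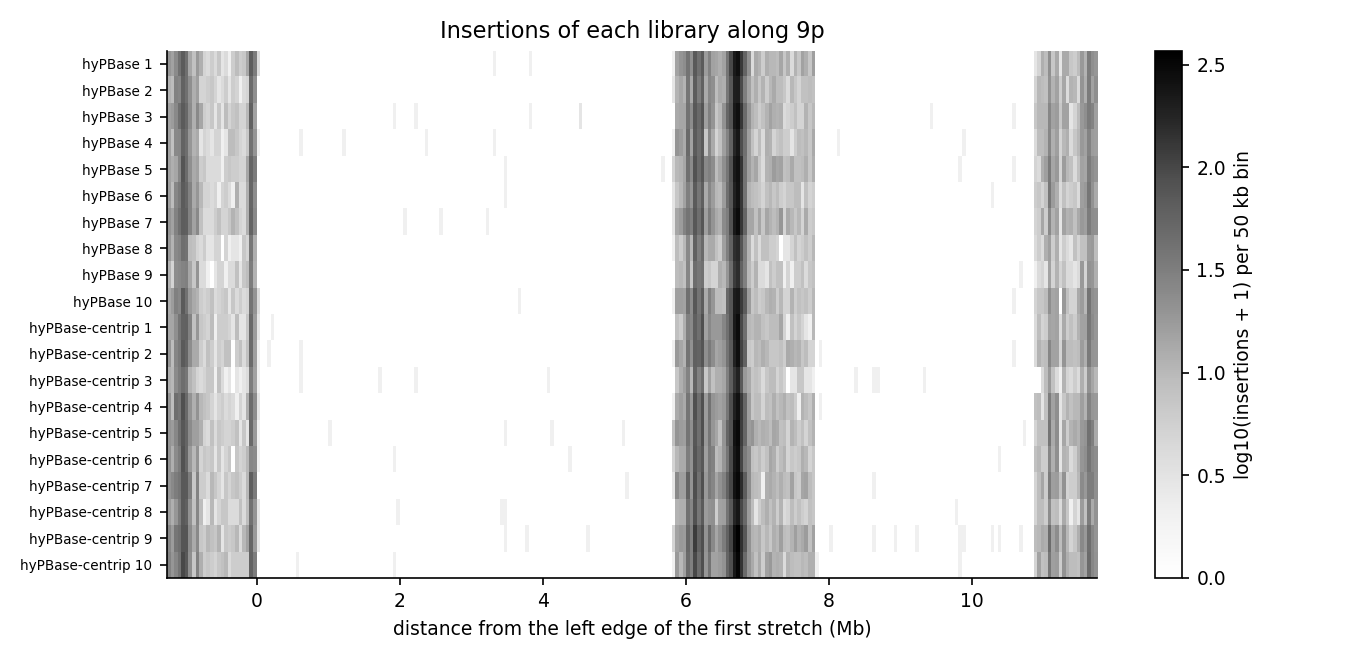
Insertions of each library (rows) in 50 kb bins along the arm, against the distance in Mb from the left edge of the first stretch, shaded by log10 of the count plus 1. All 20 rows are blank apart from scattered insertions in the first stretch, which is 5.84 Mb long, and in the second.

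For a test, the stretch was located in the libraries of one helper and measured in those of the other. The window was chosen with earlier results of these data known, so the measured libraries are not independent of that choice. The p-values of this test therefore add no separate support for the stretch. Located with hyPBase alone, it began at chr9:20750342 and ran past the window. The hyPBase-centrip libraries then had 0.0613 ± 0.0323 (SD, n = 10) insertions per 1000 sites in it and 43.8 ± 7.58 in the rest of the window. The difference, stretch minus rest, was -43.7 ± 7.60 per 1000 sites (SD, n = 10), lower in 10 of 10 libraries (exact two-sided sign-flip permutation test, p = 0.00195, the smallest it can give). Located with hyPBase-centrip alone, the longest low run began only at chr9:22688332, because stray insertions further left exceeded the limit in these libraries. The hyPBase libraries had 0.0461 ± 0.0896 (SD, n = 10) insertions per 1000 sites in that shorter part, which held none of the members. The rest of the window, which here included all of the members, had 14.6 ± 2.75 (SD, n = 10). The difference of -14.6 ± 2.71 per 1000 sites (SD, n = 10) was again negative in 10 of 10 libraries (exact two-sided sign-flip permutation test, p = 0.00195). With 50 kb bins the hyPBase-centrip libraries gave the longer stretch and the difference in the hyPBase libraries was -38.2 per 1000 sites. Against the sparse bins of the window alone the differences were -19.0 in hyPBase-centrip and -17.3 in hyPBase.

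Whether the sequence beside the sites is unique was measured on the reference. The 100 bases on either side of each TTAA were aligned to hg38, which stands in for the reads, whose length and alignment settings are not given in the sources used here. In the stretch 97.0% of sites had a unique alignment on both sides, and in the left part of the window 96.7% did. On these sites alone the differences were -45.0 per 1000 sites in hyPBase-centrip and -15.1 in hyPBase.

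The 43 stray insertions carried few reads. Of them 34 had a single read, 79.1% (95% Wilson interval 64.8 to 88.6%), against 37.7% (36.6 to 38.8%) of the 7718 insertions left of the stretch. They came from 16 libraries, 19 from hyPBase and 24 from hyPBase-centrip. At 31 of the 37 positions both sides aligned uniquely, and 4 positions were shared by libraries. The shared position in the interferon cluster is shown with its TTAA in capitals, at chr9:21356021-21356050 on the plus strand of hg38.
shared site: tttaggaataaacTTAAcctaggatgtgaa

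This site, between IFNA6 and IFNA13, was hit in the same orientation in hyPBase replicate 4 with 12 reads, in hyPBase-centrip replicate 2 with 3 reads and in hyPBase-centrip replicate 3 with 2 reads. Those 12 reads were the most of any insertion in the stretch. Another shared site, chr9:24203034-24203037, was hit in 1 orientation in hyPBase replicate 6 and in hyPBase-centrip replicates 5 and 8. At the shared position chr9:24226158-24226161 neither side aligned uniquely. Libraries share the 26 donor barcodes, and where these shared insertions came from was not tested.

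Right of the stretch lay 1.96 Mb with 25274 insertions on 15004 sites, or 1.68 per site, and 36.9% of its sites were hit. It holds 9 protein-coding genes whole. CAAP1, an inhibitor of apoptosis, had 1.65 insertions per site, IFT74, which serves transport in cilia, had 1.98, TEK, the angiopoietin receptor, had 0.882 and C9orf72 had 2.31. This segment ended within LINGO2, a gene for a neuronal membrane protein, at chr9:28549474-28549477 in intron 3 of its canonical transcript. The part of LINGO2 left of this site held 1799 insertions on 5225 sites, and the part right of it 7 on 6029. A second stretch followed, 2.78 Mb long up to chr9:31334230-31334233, with 25 insertions on 24945 sites and no whole protein-coding gene. It was 10 kb short of a further low run of 280 kb with 3 insertions on 2477 sites, the bin between them holding 4 insertions.

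With the same limit 103 low runs with at least 500 TTAA sites were found on chromosomes 1 to 22 and X. The first stretch had the most TTAA sites of them (48219 in whole bins) and the second the next (24921), ahead of a run of 10949 sites at chr5:46390001-50240000. Of the 103 runs, 24 held a whole protein-coding gene. Whether reads can be placed uniquely was not measured in the second stretch or in the runs on other chromosomes. The ranking may therefore set unlike sequence side by side.

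For the other genes of the members' pathways, a gene with insertions is the usual case, since 2.80% of all protein-coding genes with a site had none. The inhibitors of cyclin-dependent kinases outside the stretch were CDKN2C, CDKN2D, CDKN1A, CDKN1B and CDKN1C, and all 5 held insertions, from 5.50 per site in CDKN1C to 50.9 in CDKN2C, the gene for INK4c. CDKN2C had 183 to 383 insertions per library with hyPBase (median 338) and 160 to 404 with hyPBase-centrip (median 341.5). All 14 genes of the RB and p53 pathways held insertions, with a median of 3.44 per site. Of the 16 genes of methionine salvage and its neighbours, MTAP was the one without an insertion, and the other 15 had a median of 5.22 per site, among them PRMT5, whose product methylates arginine and is inhibited by methylthioadenosine, with 5.38. Of 15 genes of interferon receptors and their signaling, 14 held insertions (1.53 to 12.5 per site), and IRF7 has no TTAA site in its body. The receptor genes IFNAR1 and IFNAR2 had 5.72 and 7.73 per site. The 4 interferon genes of other types also held insertions, though IFNL1, IFNL2 and IFNL3 have 3 sites each.

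The helpers were compared where insertions allowed it. The window outside the stretch took 149 ± 9.37 (SD, n = 10) of every 1000000 insertions with hyPBase-centrip and 148 ± 10.2 (SD, n = 10) with hyPBase. The difference of 0.818 per 1000000 lay within the SD of either helper (permutation test, two-sided, 100000 resamples, p = 0.861), and the ranges of 138 to 165 and 136 to 166 overlapped. In edgeR's quasi-likelihood test over 47224 bins of 50 kb, 0.997% of all bins passed an adjusted p of 0.05. Of the 11 bins of the window with enough insertions to be tested, 0 passed, 1 had an unadjusted p under 0.05, and no bin inside the stretch could be tested. That bin, at 20.65 to 20.70 Mb with the start of FOCAD, had a log2 ratio of hyPBase-centrip over hyPBase of -0.25 (edgeR, adjusted p = 0.226).

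Over the 12865 protein-coding genes tested, 2.39% passed. Of the 60 tested genes of the arm and of the pathway and marker lists, 0 passed and 12 had an unadjusted p under 0.05. The share of all genes under that unadjusted limit was not taken, so the 12 are no excess or deficit. The erythroid marker EPOR had the lowest adjusted p of the 60, with a log2 ratio of -0.58 (edgeR, adjusted p = 0.0733). CDKN2C had -0.11 (edgeR, adjusted p = 0.119) and CDK4 -0.26 (edgeR, adjusted p = 0.134). FOCAD had a log2 ratio of -0.21 (edgeR, adjusted p = 0.140), MLLT3 of -0.33 (adjusted p = 0.138) and TEK of 0.32 (adjusted p = 0.0928). With at least 2 reads per insertion FOCAD passed (adjusted p = 0.0234). None of the 6 members had enough insertions for this test.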

How the data were processed

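For each library the authors deposited 1 line per insertion with its position, read count, orientation and barcode. No normalization was applied to these deposited read counts. The submitters' processing notes name hg38, Trimmomatic, BWA and SAMtools, without versions, and their order and filters are not given in the sources used here. Each line was counted as 1 insertion, whatever its read count, and insertions per bin or gene body were counted without regard to strand. TTAA sites were taken from hg38 and genes from GENCODE version 44. Flanks of 100 bases were aligned with minimap2 2.31 and called unique at a mapping quality of 30 or more. The 6 genes, the window and the gene lists were chosen with earlier results of these data known. The text names all members, the protein-coding genes of the window, the genes at an edge, genes of the lists that are compared with a member, and window bins past the threshold. The genes between the stretches, those without insertions elsewhere, and EPOR and CDK4 in the comparison of helpers were named after their values were seen.

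Bins and genes that reached 10 insertions in 10 or more libraries were tested with edgeR 4.0.16 in R 4.3.3 (TMM, quasi-likelihood test, Benjamini-Hochberg adjustment over all bins or genes). Tests of 1 value per library were permutation tests in scipy 1.17.1. On simulated counts edgeR recovered 98.9% of 2-fold and 72.2% of 1.5-fold changes among 12865 genes, and 96.9% and 63.2% among 47224 bins. The stretch rule recovered 100% of 50 planted stretches. In that simulation sparse bins outside the planted stretches were raised to a higher rate and stray insertions fell at random. It was thus an easier setting than the data, where strays ended runs under some alternatives. Alternatives covered reads per insertion, barcodes, the limit and width of bins, DESeq2 1.42.0, other size factors, filters, a replicate block and Fisher's exact test. Intervals and floors cover counting error only. Labels of 2 libraries contradict each other on the helper, and these entered no comparison. Plots were drawn with matplotlib 3.10.9.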

Additional observations from a re-analysis of the deposited data

Results flagged for a closer look

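Chance flags about 1 in 20 groups of 10 libraries, and 14 groups were looked at. That rate need not hold for counts as small as those in the second stretch, 0 to 2 with hyPBase. In hyPBase-centrip replicate 3 the left side of the stretch held 28.1 insertions per 1000 TTAA sites, below the 40.3 of the next library. Its total of 1638175 insertions was the lowest of that helper. In the second stretch hyPBase-centrip replicate 9 held 8 insertions, where the next library held 4, and hyPBase replicate 4 held 2, where the next held 1. Of the libraries that entered no comparison, 1 held 4 insertions in the first stretch. This lay within the 0 to 5 of the 20 compared libraries.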

How the results depend on the processing

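The low rate in the stretch kept its direction in both tests under all 9 alternatives of each. The stretch was picked for its low rate in the same cell line, in a window chosen with earlier results known. A change of direction could thus hardly occur, and the kept direction adds no support. The p of 0.00195 is the smallest these tests can give, so that it could not show a change in strength. The difference in hyPBase was -38.2 per 1000 sites with limits of 10% or 20% or with 50 kb bins, and -14.6 with limits of 5% or 1%, since the located stretch was longer in the first case. The length and the number of insertions depended on where stray insertions ended a run. With at least 2 or at least 3 reads the length was 5.24 Mb in both cases and the stretch held 5 and 6 insertions, the 6 within a right edge that then lay further right. The left edge then lay in the interferon cluster and no longer in FOCAD, so that IFNB1 fell outside the stretch. With a limit of 1% the length was 1.51 Mb with 10 insertions, and the stretch held none of the members. With the hyPBase-centrip libraries alone the length was 3.90 Mb, and again none of the members lay in it. The stretch of all 20 libraries was 3.25 Mb long if ended at the window. Following the stretch past the window, and the tests on unique sites and on sparse bins, were added after seeing the data. The share of insertions outside the stretch did not pass under any of the 8 alternatives, and turned to -0.686 per 1000000 with at least 2 reads (p = 0.906) and to -7.22 with at least 3 (p = 0.244). Called genes of the arm and lists were 1 (FOCAD) with at least 2 reads and 0 under the other 7 alternatives, where DESeq2 gave 36 of the 60 genes no adjusted p. Over all genes edgeR called 307, against 191 with DESeq2, 472 with Fisher's exact test on pooled insertions and 21 with barcodes collapsed. Over all bins it called 471, against 18 with barcodes collapsed and 731 with 10 kb bins. Of the window bins that each setting tested, from 4 with 10 kb bins to 40 without the filter, 0 passed in edgeR or in Fisher's test, and DESeq2 gave its 11 bins no adjusted p. The replicate numbers did not pair the libraries: deviations of same-numbered libraries correlated at -0.0457 to 0.0377 (0 of 10 pairs over 0.1, 1 of 10 libraries closest to its own number). With the replicate block the share outside the stretch gave p = 0.869 for its difference of 0.818 per 1000000, and 0 window bins and 0 listed genes passed, with 431 bins and 292 genes called in all. Depth limits the short interferon genes, since 17.0% of all genes with 1 to 10 sites had no insertion, against 2.03% with 11 to 100.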

Other observations

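In the part of FOCAD left of the edge, 36.5% ± 6.51 (SD, n = 20) of insertions had the orientation of the gene, with 18.4 to 44.4% in the individual libraries, below 50% in 20 of 20. Of distinct positions and orientations 34.3% had that of the gene. On the whole of chromosome 9, 49.5% of insertions lay on the plus strand, which is the strand of FOCAD. That share mixes genes of both strands with DNA outside genes. The share in other gene bodies was not measured here, so whether FOCAD differs from them is not known. The comparison was chosen after the values were seen and was not tested.

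In the 2 libraries whose labels contradict each other, the first stretch held 2 and 4 insertions and the part of the window to its left 318 and 228. Sought within the same limits as above, their last insertions on the left lay at chr9:20750872 and chr9:20746430, and their first on the right at chr9:26591904 and chr9:26592426.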
